A study of Homo sapiens with 12 samples.

Results

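Of the coding regions that carried many disome footprints, 1453 lay below 1/2 of their DMSO level, as a share of all counts, in 10 µM girolline. The treatment lasted 2 h, and each of 2 DMSO libraries served as comparison. A disome footprint is the longer RNA fragment protected by a pair of adjoining ribosomes. A region was included when its mean over the 4 disome libraries was at least 10 CPM (counts scaled to 1000000 per library) and its log2(CPM + 0.1) in the 10 µM library lay more than 1 below both DMSO libraries. These lowered coding regions were 1453 of the 14506 regions with at least 10 CPM, or 10.0%, and of 39157 distinct disome profiles in all. The set was chosen by its disome values with DMSO and at 10 µM, so its fall at 10 µM is a description and not a finding.

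All libraries came from wild type HEK293T Flp-In cells, which derive from human embryonic kidney and have a built-in landing site for transgenes. They received DMSO, the solvent, or girolline, a natural product of a marine sponge, at 1 or 10 µM for 2 h. Results rest on 4 disome libraries and 4 poly(A) RNA-seq libraries, and each kind held 2 DMSO libraries and 1 library per dose. Whether the DMSO libraries came from separate cultures is not stated in the labels, so a p-value here reflects only how far these libraries lie apart, which may be technical. Over the deposited rows with a coding length, totals ran from 3091715 to 5769026 counts in the disome libraries and from 28424272 to 42194871 in RNA-seq. Transcripts are known here by UCSC identifiers that the files do not pair with gene names, so regions are described by coding length, level and mRNA, and the cell line could not be checked against marker genes.

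Ribosomes that pause let the next ribosome catch up, and the pair then protects a disome footprint from nuclease. Pauses of this kind arise at slow peptide bonds, such as runs of proline, and at stop codons. The factor eIF5A, the only protein known to carry the modified lysine hypusine, binds paused ribosomes and speeds both steps. The series title presents girolline as a modulator of eIF5A activity that depends on sequence context. More ribosomes on an mRNA also give more chances to meet, so the disome level of a coding region follows its mRNA level and ribosome load as well as its pauses. The counts hold no positions along the coding region, and monosome tables use other identifiers, so these sources of a disome change cannot be told apart. CPM values are shares of a library, so fewer disomes on a region and more disomes on other regions cannot be told apart. In a bulk lysate, a change in every cell and a change in some of the cells cannot be told apart either.

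The 1453 regions stood for 1697 transcript identifiers, since 174 of them covered several transcripts with identical counts. Isoforms of 1 gene may share reads in these counts, and neighbouring rows of the tables often hold near-equal values. Joined across gaps of at most 10 coding rows, the regions formed 595 runs, of which 262 held a single region and 77 held at least 5. The largest run held 24. Joined in the same way, all regions with at least 10 CPM formed 2313 runs. Lowered regions lay in 563 of them, and 79 of these runs held lowered regions only, so most held at least 1 region that did not meet the rule. With 1 transcript kept per block of 10 coding rows, 441 of 4749 regions were lowered, or 9.29%. Members are therefore not independent observations.

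The set spanned a wide range of disome levels. With DMSO, the median region held 32.8 CPM in the first library and 34.4 in the second. The same median was 23.5 CPM at 1 µM and 12.6 at 10 µM. In counts, the median region had 87 and 152 footprints with DMSO, 95 at 1 µM and 63 at 10 µM, and the lowest count at 10 µM was 6. The 2 DMSO libraries differed by more than 1 on the log2 scale in 4 of the 1453 regions. Summed over the set, lowered regions made up 15.8% and 15.6% of the DMSO disome libraries, 11.7% of the 1 µM library and 5.58% of the 10 µM library, where reads shared by isoforms may be counted more than once. In RNA-seq the same transcripts made up 6.89% and 6.78% of the DMSO libraries, 6.96% of the 1 µM and 7.77% of the 10 µM library. The share of disome counts was higher than the share of mRNA counts with DMSO and lower at 10 µM. Disome values with DMSO and at 10 µM entered the rule, so this is a description. Rows with identical counts were merged separately in each kind of library, so the shares do not count isoforms alike.

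The median log2 difference of the set from the DMSO mean was -1.36 at 10 µM, with quartiles at -1.56 and -1.21. All 14506 regions had a median of -0.18 on this scale. TMM scaling, which sets the bulk of regions near 0, moved that median to -0.06 and left 1090 lowered regions. Taking the median off each difference left 912. Many members lay close to the limit. In 736 of them the difference from the lower DMSO library was no more than 0.25 past the limit of -1. Kept at 1 per block, the 2 regions just inside the limit, of 3419 and 337 codons, lay -1.0011 and -1.0014 from the nearer DMSO library. The 2 just outside it, of 480 and 353 codons, lay -0.9995 and -0.9994 from it. Membership at the edge is therefore within counting error: the region of 480 codons rested on 36 and 59 counts with DMSO and 33 at 10 µM.

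**Figure D1:**
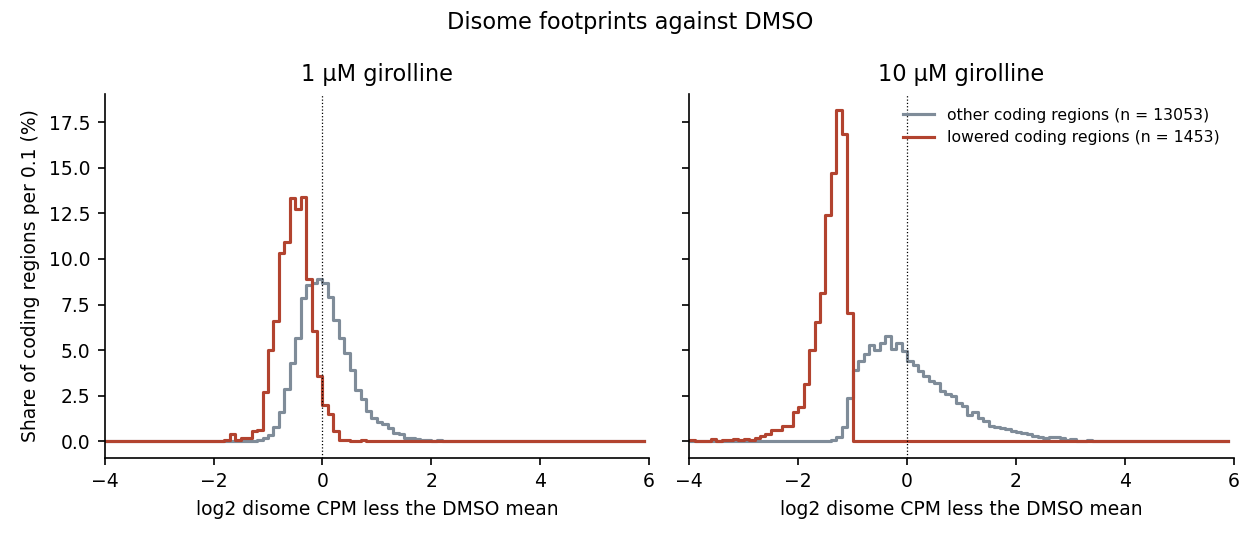
Distribution of the log2 disome CPM less the mean of the DMSO libraries at 1 µM (left) and 10 µM (right), as the share of coding regions per step of 0.1 on the x axis. Lowered coding regions (red, n = 1453) end at -1 at 10 µM because the rule puts them there. At 1 µM their median was -0.51, and that of the other regions with at least 10 CPM (grey, n = 13053) was 0.001.

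At 1 µM the lowered regions had a median log2 difference of -0.51 from DMSO, with quartiles at -0.71 and -0.32 and a range from -1.80 to 0.74. The other 13053 regions had a median of 0.001 and quartiles of -0.28 and 0.33. The 1 µM value uses the same DMSO libraries as the rule, so it is no separate support. Coding lengths were put in 6 classes with bounds at 100, 200, 300, 500 and 1000 codons. From short to long, the 1 µM medians of the lowered regions were -0.50, -0.43, -0.43, -0.46, -0.46 and -0.63. The other regions of these classes ran from 0.26 in the shortest to -0.31 in the longest.

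The lowest 10 µM values were mostly on short coding regions, while the set as a whole held many long ones. Among the 89 regions with a log2 difference of -2 or lower at 10 µM, the median coding length was 190 codons, 65 had fewer than 300 codons and 7 had 1000 or more. Among the 482 regions whose mean difference was no more than 0.25 past -1, the median length was 669 codons, 126 had fewer than 300 and 147 had 1000 or more. The 89 lowest regions had a median 1 µM difference of -0.72, against -0.44 in the group nearest the limit. Both doses are set against the same DMSO mean, so a link between them is partly built in. Kept at 1 transcript per block, the lowest group shrank to 20 regions, so it rests on few separate stretches of the table. The length pattern within the set is given without a test.

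The region with the lowest value at 10 µM among those kept at 1 per block was transcript uc058eui.1, of 116 codons. It held 21.5 and 25.3 CPM with DMSO, then 13.1 at 1 µM and 2.61 at 10 µM. The 10 µM value rests on 13 counts, with a 95% exact Poisson interval of 6.92 to 22.2 counts that covers counting error only. Transcript uc064fud.1, of 99 codons, came next, with 82.7 and 123 CPM with DMSO, 56.5 at 1 µM and 13.6 at 10 µM. In both transcripts the 1 µM library lay between the DMSO libraries and the 10 µM library. In RNA-seq, uc058eui.1 was at 4.61 and 4.12 CPM with DMSO, 4.37 at 1 µM and 3.80 at 10 µM. Transcript uc064fud.1 held 56.1 and 60.5 CPM with DMSO in RNA-seq, 55.2 at 1 µM and 45.2 at 10 µM. Neither passed the mRNA test at 10 µM, where edgeR's quasi-likelihood fit gave Benjamini-Hochberg adjusted p = 0.858 and 0.404.

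The 10 lowest regions at 1 per block spanned 92 to 1743 codons, with a median of 152, and log2 differences of -3.11 to -2.21 at 10 µM. A region of 382 codons had the highest level among them, with 162 and 171 disome CPM with DMSO, then 101 at 1 µM and 30.7 at 10 µM. The only long one, of 1743 codons, held 16.2 and 14.5 CPM with DMSO, then 11.4 at 1 µM and 3.01 at 10 µM, the last from 15 counts. Its mRNA was at 9.75 and 6.89 CPM with DMSO, then 8.71 at 1 µM and 14.4 at 10 µM. The log2 fold change of 0.75 did not pass the edgeR test (adjusted p = 0.0791). None of the 10 was called in RNA-seq, and their mRNA log2 fold changes ran from -0.62 to 0.75.

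Some of the highest disome levels in the tables were among the lowered regions. Of 68 regions with at least 1000 disome CPM with DMSO, 22 were lowered, and of 1681 with at least 100 CPM, 265 were. At 1 transcript per block these counts were 7 of 27 and 93 of 676. The level with DMSO entered the rule, which makes members likelier at high DMSO values, so these counts are a description. The highest, of 686 codons, held 4790 and 4574 CPM with DMSO, then 3754 at 1 µM and 1561 at 10 µM. The next, of 642 codons, held 3187 and 2901 CPM with DMSO, then 2557 at 1 µM and 692 at 10 µM, the lowest log2 difference (-2.14) among the 10 most abundant. Regions of 733 and 725 codons held 2642 and 2615 CPM and 2476 and 2434 CPM with DMSO, and 918 and 790 CPM at 10 µM. Regions of 647 and 628 codons, 3 rows apart in the tables, were at 2391 and 2343 CPM in the first DMSO library, 2466 and 2425 in the second and 693 and 671 at 10 µM, and their near-equal values may come from shared reads.

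The abundant regions differed in how far the 1 µM library had moved. The region of 733 codons was at 1720 CPM and that of 725 codons at 1609 CPM at 1 µM, log2 differences of -0.61 in both. The regions of 647 and 642 codons were at 2147 and 2557 CPM at 1 µM, differences of -0.18 and -0.25, although they lay lower than the former pair at 10 µM. A region of 230 codons held 899 and 825 CPM with DMSO, 849 at 1 µM, inside the DMSO pair, and 393 at 10 µM. With 1 library per dose, these differences between regions have no replicate check. None of the 10 most abundant regions was called in RNA-seq, with mRNA log2 fold changes of -0.34 to 0.28.

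**Figure D2:**
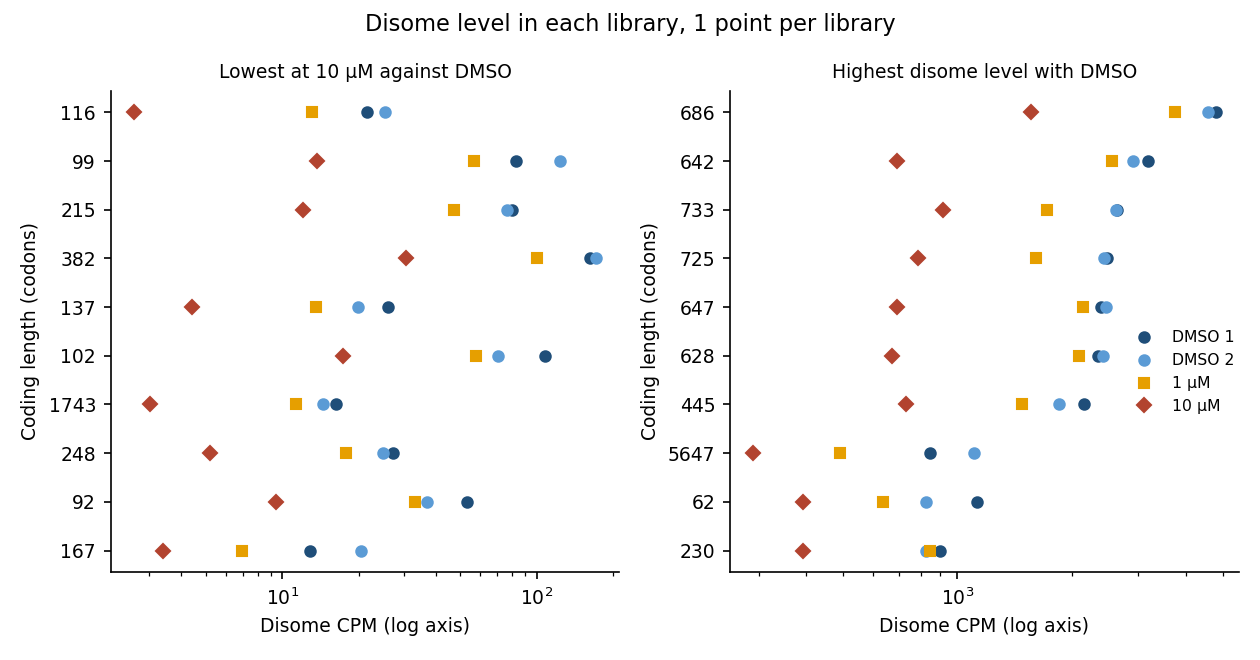
Disome CPM (log axis) in the 2 DMSO libraries (circles), the 1 µM library (squares) and the 10 µM library (diamonds), 1 point per library. Shown are the 10 lowered coding regions with the lowest 10 µM value against DMSO (left) and the 10 with the highest DMSO level (right), labelled by coding length and kept at 1 per block of 10 rows. The 10 µM point lies left of the others in each of them, which the rule required for the DMSO points, and the 1 µM point of the region of 230 codons lies inside its DMSO pair.

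A few members were not lower at 1 µM, where the 95th percentile of the log2 difference over the set was -0.02. The highest of all, 0.74, was on a region of 215 codons that was not kept at 1 per block. Among those kept at 1 per block, the 3 highest at 1 µM had 700, 624 and 148 codons, with log2 differences of 0.24, 0.23 and 0.23. The region of 148 codons, whose counts stood for 7 transcripts, held 42.7 and 42.5 disome CPM with DMSO, then 49.9 at 1 µM and 14.8 at 10 µM. The region of 700 codons held 13.6 and 10.4 CPM with DMSO, then 14.1 at 1 µM and 5.02 at 10 µM, the last from 25 counts.

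Coding length was not used by the rule. Lowered regions had a median of 610 codons (quartiles 250 and 1105), the other regions with at least 10 CPM 394 (198 and 700), and the 1555 regions that lay more than 1 above both DMSO libraries at 10 µM 185 (128.5 and 280.5). In the length classes from short to long, the share of lowered regions was 8.19%, 7.37%, 8.01%, 6.72%, 10.6% and 19.8%. In numbers, 408 of 2056 regions of the longest class were lowered and 63 of 769 of the shortest. At 1 transcript per block the shares in the same order were 8.06%, 6.09%, 5.43%, 5.10%, 9.16% and 19.6%. The share was highest in the longest class in both counts. Below 500 codons it lay between 6.72% and 8.19% over all regions, and at 1 per block it was lower in each longer class, from 8.06% to 5.10%. No region of 1000 codons or more lay over 1 above both DMSO libraries, where 221 of 769 of the shortest class did. Regions are not replicates, so these shares carry no test.

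**Figure D3:**
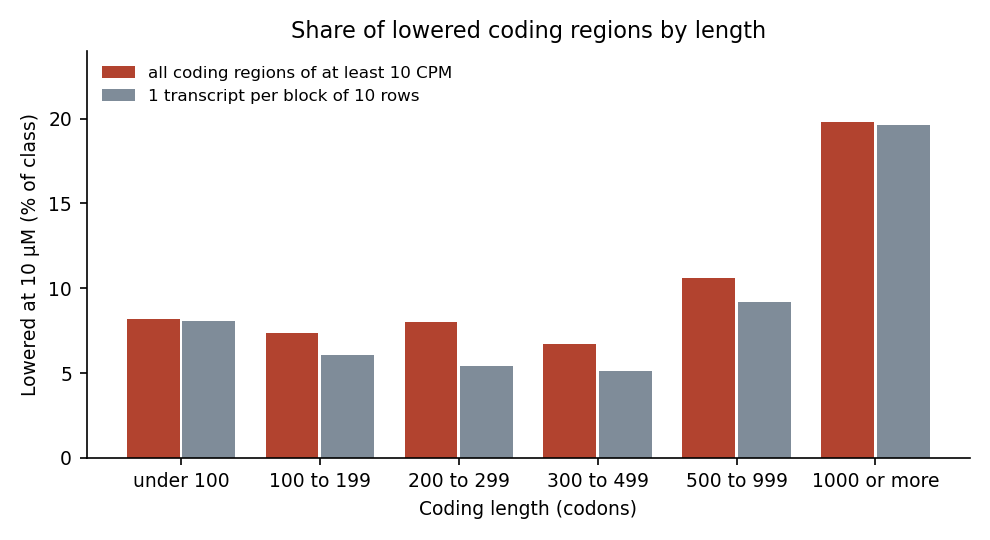
Share of coding regions with at least 10 CPM that were lowered at 10 µM, by coding length class in codons, for all regions (red) and for 1 transcript per block of 10 coding rows (grey). The bars stay between 5.10% and 10.6% below 1000 codons and reach 19.8% and 19.6% at 1000 codons or more.

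The 4 longest regions kept at 1 per block were 2 pairs of neighbours. Regions of 7462 and 5676 codons, 3 rows apart, held 81.2 and 85.7 disome CPM in the first DMSO library, 90.9 and 91.3 in the second, 54.1 and 53.6 at 1 µM and 35.5 and 36.5 at 10 µM. A pair of 6908 and 6886 codons, 4 rows apart, held 36.6 and 36.2 CPM in the first DMSO library, 52.2 and 52.0 in the second, 29.1 and 28.9 at 1 µM and 14.0 at 10 µM in both. All of these 4 had 10 µM values below their 1 µM values, and none was called in RNA-seq. Their mRNA log2 fold changes lay between 0.27 and 0.31.

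At the other end, the shortest regions kept at 1 per block had 45, 60, 62 and 77 codons. That of 62 codons was among the most abundant, with 1126 and 825 disome CPM with DMSO, then 636 at 1 µM and 391 at 10 µM. Its mRNA held 165 and 193 CPM with DMSO and 154 at 10 µM. The region of 45 codons held 52.9 and 46.6 disome CPM with DMSO and 20.7 at 10 µM, while its mRNA stayed near 1 CPM. RNA-seq lengths lie 20 codons below disome lengths in the tables, so mRNA values of such short regions count a smaller part of the coding sequence. In 7 of the 1453 regions the mRNA was under 1 CPM with DMSO.

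Disome level per mRNA with DMSO was higher in the lowered regions than in the rest. It is given as the log2 of disome CPM less that of RNA-seq CPM for the same transcript, so 0 means the same share of both kinds of library. Among the 1446 lowered regions with at least 1 RNA-seq CPM the median was 0.54 (quartiles -0.11 and 1.17), against -0.10 (-0.74 and 0.55) in the 13036 others, and 1036 of the 1446, or 71.6%, lay above 0, against 46.1% of the others. The regions over 1 above both DMSO libraries had a median of -0.89. The DMSO disome libraries entered the rule, and regions with high DMSO values are likelier to meet it, so this is a description. At 10 µM the medians were -1.07 in the lowered regions and -0.07 in the others. The lowered regions stood above the others with DMSO and below them at 10 µM. The 10 µM disome library entered the rule as well, so this crossing is a description too. RNA-seq levels themselves differed little, with a median of 25.9 CPM with DMSO in the lowered regions and 26.9 in the others.

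Regions were also ordered by DMSO disome per mRNA and split into 4 groups of equal size. This order uses the DMSO disome values that also entered the rule, and high DMSO values favour both a high place and membership, so the shares are a description and support nothing. In the lowest group 3.20% were lowered, in the next 7.57%, in the one above 10.6% and in the highest 18.6%. Among regions of 1000 codons or more, the shares in the same groups were 10.6%, 15.8%, 23.8% and 37.6%. In the class from 100 to under 200 codons they were 0.709%, 5.54%, 6.75% and 14.2%. Within each of the 6 length classes the share was lowest in the lowest group and highest in the highest. Within each class the lowered regions also had the higher median disome per mRNA, from 1.91 against 0.45 under 100 codons to 0.19 against -0.27 at 1000 or more.

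**Figure D4:**
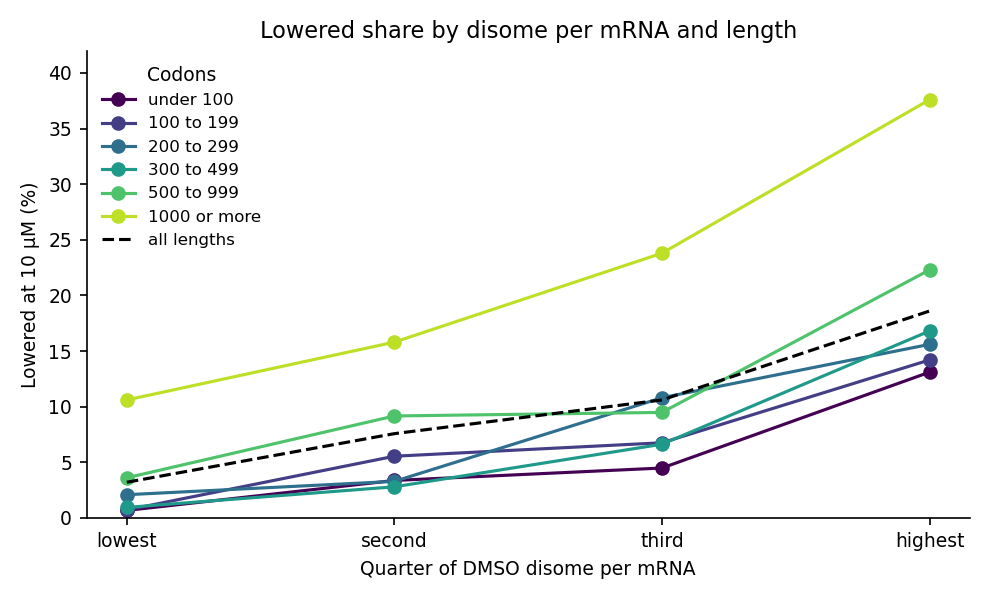
Share of coding regions lowered at 10 µM (y axis, percent) in 4 equal groups by DMSO disome level per mRNA (x axis), with 1 line per coding length class and a dashed line for all lengths. The x axis uses DMSO disome values that the rule also used. The line for 1000 codons or more runs from 10.6% to 37.6%, and that for all lengths from 3.20% to 18.6%.

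The extremes of disome per mRNA showed how unlike the members were. They were taken among regions with at least 1 RNA-seq CPM with DMSO, which left out the region of 45 codons at 5.60. The highest value at 1 per block, 5.15, belonged to a region of 5647 codons. It had 849 and 1103 disome CPM but only 27.8 and 26.6 RNA-seq CPM with DMSO. Its disome level was 492 CPM at 1 µM and 290 at 10 µM. The next 4 values were 3.62 on a region of 90 codons, 3.57 on 1 of 3844, 3.50 on 1 of 3796 and 3.38 on 1 of 222, so short and long regions were both among the highest. The region of 90 codons held 146 and 111 disome CPM with DMSO, then 97.5 with 1 µM and 49.6 with 10 µM. That of 3796 codons lay 56 rows from the region of 5647 codons, and that of 3844 codons lay 107 rows from the nearest of these long regions. The long regions among the highest values thus came from nearby rows of the tables. Whether they share reads was not tested, so they may not be separate observations. The region of 3796 codons was at 592 and 730 disome CPM with DMSO, then at 344 with 1 µM and 190 with 10 µM. All 5 still held a larger share of disomes than of mRNA at 10 µM, at 1.92 to 3.71. At the low end, a region of 1053 codons had a value of -2.36, with 14.7 and 15.4 disome CPM against 82.2 and 73.8 RNA-seq CPM with DMSO. It held 6.82 disome CPM at 10 µM.

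The RNA-seq libraries were not used by the rule and allow a test of the same transcripts. In most lowered regions the mRNA did not pass that test at 10 µM, and calls were more often rises than falls. Of 1448 lowered regions tested, 27 rose and 10 fell by edgeR's quasi-likelihood test at an FDR of 0.05, or 1.86% and 0.691%. Over all 56229 mRNAs tested, 0.537% rose and 0.571% fell, and among the other regions with at least 10 disome CPM 1.04% rose and 1.56% fell. The share of rises thus lay above both backgrounds, while the share of falls lay near the first and under the second. Isoforms weigh on these counts. The 27 rises formed 13 runs of neighbouring rows and the 10 falls 7. Of the 27 rises, 12 were on regions kept at 1 per block, and of the 10 falls 1 was. A separate fit on 1 transcript per block called 18 rises and 1 fall among 440 members tested. Over all 8069 rows of that fit, 1.31% rose and 1.39% fell. In a fit that added the disome libraries, 38 rose and 12 fell, where 0.658% of all rows rose and 0.808% fell. Without RNA-seq DMSO 2 that fit gave 22 rises and 22 falls (0.552% and 1.05% of all rows), and without RNA-seq DMSO 1 it gave 36 and 12 (0.839% and 1.09%). With 1 RNA-seq DMSO library left out, each RNA-seq group has 1 library, and the only spread left in that fit is between the 2 disome DMSO libraries, so the RNA-seq libraries are assumed to vary like these. Against counting noise, the DMSO pair differed more in RNA-seq (chi-square per degree of freedom 6.47) than in disomes (2.11). Counting noise shrinks with depth and the RNA-seq libraries were deeper, so these values cannot decide whether that assumption holds. DESeq2 called 18 rises and 5 falls among the 1264 members to which it gave an adjusted p. Over the 19164 rows with an adjusted p, 0.532% rose and 0.642% fell, so these shares have another base than those of edgeR.

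The median mRNA log2 fold change at 10 µM was 0.11 in the lowered regions, -0.02 in the other regions with at least 10 disome CPM, -0.22 in those over 1 above both DMSO libraries and -0.01 over all mRNAs tested. Of the 1446 lowered regions with at least 1 RNA-seq CPM, 865, or 59.8%, lay above both DMSO libraries in RNA-seq at 10 µM and 254, or 17.6%, below both. Over all 46660 mRNAs with at least 1 CPM these shares were 40.0% and 32.6%. Median mRNA log2 fold changes were higher on longer coding regions, and the lowered regions had a higher median length than the rest. In the length classes from short to long, the lowered regions had medians of -0.34, -0.01, 0.03, 0.10, 0.12 and 0.22. The other regions had -0.34, -0.16, -0.10, -0.05, 0.05 and 0.15 in the same order. From 100 codons up, the lowered regions thus had the higher median in each class. The part of length or of the RNA-seq library in these values was not tested.

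**Figure D5:**
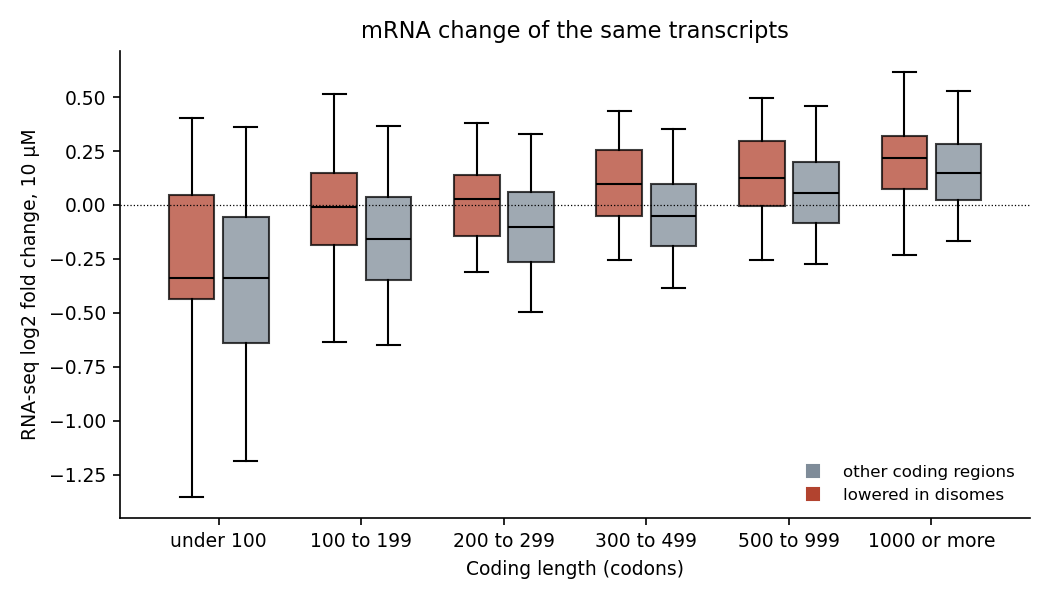
RNA-seq log2 fold change at 10 µM against DMSO (y axis) by coding length class, for lowered coding regions (red) and the other regions with at least 10 disome CPM (grey). Boxes span the quartiles with the median as a line, and whiskers reach the 5th and 95th percentiles over coding regions. Medians rise with length in both sets, from -0.34 under 100 codons to 0.22 and 0.15 at 1000 or more.

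The members called in RNA-seq were of contrasting lengths. The 27 with raised mRNA had a median of 837 codons, and 19 of them had at least 500. The 10 with lowered mRNA had a median of 61 codons, and 8 had fewer than 300. Isoforms weigh on these medians, since the 27 formed 13 runs of neighbouring rows and the 10 formed 7. The other regions had a similar length pattern, with median mRNA changes of -0.34 under 100 codons and 0.15 at 1000 or more. Lengths of called regions outside the set were not compared. For the 27 with raised mRNA, disome CPM thus lay lower on more mRNA. The largest rise was on a region of 281 codons, whose mRNA held 23.0 and 23.6 CPM with DMSO, 32.8 at 1 µM and 96.6 at 10 µM. This is a log2 rise of 2.01 (SE 0.18), with adjusted p = 4.78e-23 in the edgeR test. The disome level of this region was 46.4 and 40.2 CPM with DMSO, then 33.1 at 1 µM and 19.3 at 10 µM. Its 10 µM library was therefore the highest of the 4 in RNA-seq and the lowest of the 4 in disomes.

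A region of 5538 codons held 36.3 and 29.0 RNA-seq CPM with DMSO, then 35.3 at 1 µM and 68.6 at 10 µM. Its mRNA rose by 1.03 on the log2 scale (SE 0.19, adjusted p = 1.63e-05 in the edgeR test). Its disome level was 56.6 and 60.6 CPM with DMSO, then 40.5 at 1 µM and 24.1 at 10 µM. A short region of 127 codons was abundant in both kinds of library. It held 490 and 471 RNA-seq CPM with DMSO, 530 at 1 µM and 872 at 10 µM, and 577 and 473 disome CPM with DMSO, then 461 at 1 µM and 232 at 10 µM. Its mRNA rose by 0.82 on the log2 scale (SE 0.15, adjusted p = 1.67e-05 in the edgeR test).

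The RNA-seq DMSO libraries lay far apart for a few members. A region of 5064 codons held 138 and 73.3 RNA-seq CPM with DMSO, 99.4 at 1 µM and 188 at 10 µM, which gave 0.80 on the log2 scale and adjusted p = 0.000701 in the edgeR test. Without RNA-seq DMSO 2, in the fit that takes its spread from the disome DMSO pair, its log2 fold change was 0.39 with adjusted p = 0.315, and with DESeq2 adjusted p = 0.919, the highest over its alternatives, where the lowest was 2.7e-09 without RNA-seq DMSO 1. Its disome level was 455 and 379 CPM with DMSO, then 238 at 1 µM and 123 at 10 µM. The only fall called among members kept at 1 per block was on a region of 200 codons. Its mRNA held 43.9 and 49.3 CPM with DMSO, then 48.9 at 1 µM and 27.5 at 10 µM. It fell by 0.80 on the log2 scale (SE 0.20, adjusted p = 0.0113 in the edgeR test). Without RNA-seq DMSO 2, in the same fit with the disome libraries, this was -0.73 with adjusted p = 0.0505, and over the other alternatives its adjusted p ran from 0.00324 to 0.0326.

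At 1 µM no mRNA of the set was called. EdgeR's quasi-likelihood test called 0 of the 1448 lowered regions tested, as it called 0% of all 56229 mRNAs, and DESeq2 called 0. Without adjustment, 12 of the 1448 had an edgeR p under 0.05, where 557 of all 56229 mRNAs did. In the fit with the disome libraries but without RNA-seq DMSO 2, 1 of the set was called lower, where 0.00454% of all rows in that fit were. The median mRNA log2 fold change of the set at 1 µM was 0.006, against -0.02 in the other regions with at least 10 disome CPM. At 1 µM 40.1% of the set lay above both DMSO libraries in RNA-seq and 12.9% below both, against 35.1% and 20.7% of all mRNAs with at least 1 CPM. The region of 281 codons with the largest mRNA rise at 10 µM had 0.45 at 1 µM. The disome medians of the set, by contrast, lay at -0.51 at this dose on the DMSO libraries that the rule used.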

How the data were processed

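The submitters' processing notes name hg38, STAR 2.7.0a and CASAVA 1.8, with no role given. The counter, annotation release and treatment of reads with several matches are not given in the sources used here. The authors deposited raw read counts per transcript with a length, not normalized. The length column, deposited as whole numbers, was read as codons of coding sequence (33.1% of values are multiples of 3, and RNA-seq values lie 20 below disome values).

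Of 182398 rows, 93916 have a coding length. Rows with identical disome counts were merged, the first in file order standing for them (39157 rows). RNA-seq rows were merged alike (59395). CPM used the totals of merged rows, 2648836 to 4984625 in disome and 23129552 to 34232074 in RNA-seq libraries, so 10 CPM is 26.5 to 49.8 disome counts. The disome DMSO pair differed by more than sampling noise (chi-square per degree of freedom 2.11, RNA-seq 6.47). RNA-seq differences were fitted in edgeR 4.0.16 under R 4.3.3 (TMM, filterByExpr, quasi-likelihood, Benjamini-Hochberg, FDR 0.05), in 3 groups of 4 libraries with 1 residual degree of freedom, so the spread of a lone dose library was taken to be that of the DMSO libraries. The script was checked on simulated data that held only large changes on well-counted rows, so the check does not cover smaller changes. DESeq2 1.42.0 was an alternative.

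Members and lists were chosen with earlier results of these data known. Described members were the lowest at 10 µM, the most abundant, the longest and shortest, those at the limit, the extremes of disome per mRNA, those called in RNA-seq by adjusted p, and the highest at 1 µM, at 1 per block of 10 coding rows (highest mean disome CPM). Since no file or table used here pairs identifiers with names, only the first 2 of the lowest are given by identifier, and planned gene lists, marker checks, monosome comparisons and sequences were not made.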

Additional observations from a re-analysis of the deposited data

How the results depend on the processing

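The number of lowered regions was 1453. It became 914 at a minimum of 20 CPM, 441 with 1 transcript per block and 912 with the median difference taken off, and ran from 1765 to 2019 with 1 disome DMSO library left out. At 5 CPM (2158), with a pseudocount of 1 CPM (1277), without merging (1486) and with TMM scaling (1090) it stayed within 1.5 times. The median length was 754 codons with 1 transcript per block and 560 to 673 without 1 DMSO library. The median 1 µM difference was -0.49 without merging, -0.47 with TMM scaling and -0.55 to -0.51 without 1 DMSO library. Median disome per mRNA was 0.43 per codon counted and 0.50 to 0.57 without 1 DMSO replicate.

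In RNA-seq at 10 µM, 37 members were called. DESeq2 called 23 (5 lower) of the 1264 to which it gave an adjusted p. A separate fit on 1 transcript per block called 19 (1 lower). Fits with the disome libraries and without 1 RNA-seq DMSO library called 44 to 48, with 22 to 36 higher and 12 to 22 lower, and 0 to 1 at 1 µM, with the spread taken from the disome DMSO pair alone. The median mRNA change was 0.11 with DESeq2 size factors and with DESeq2, 0.12 with 1 transcript per block, 0.10 in the fit with the disome libraries and 0.082 to 0.087 without 1 RNA-seq DMSO library. The fit with the disome libraries, the median taken off, the per-codon ratio and the choice of the isoform with most RNA-seq counts were added after the data had been seen. No paired analysis was possible because each dose has 1 library, so the groups compared share fewer than 2 replicate numbers.

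Members rested on as few as 27 and 44 counts in the DMSO disome libraries, 18 at 1 µM and 6 at 10 µM, which limits the precision of the lowest ones.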
